A study of Rattus norvegicus with 32 samples.

Results

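Voltage-gated ion channel genes were described in the soma and the dendrites of single cultured rat neurons. The genes were the 31 sodium, potassium, calcium and HCN channel genes of a fixed list, taken by gene symbol, and all 31 were among the 17216 gene rows of the deposited tables. Wild-type Sprague Dawley rats gave hippocampal neurons at embryonic day 18, which grew in culture for 15 days. From each of 16 neurons, labelled pyramidal, the soma and the dendrites were drawn into separate micropipettes, giving 16 soma and 16 dendrite libraries with no treatment. Polyadenylated RNA was amplified by 3 rounds of aRNA synthesis, in which an RNA polymerase copies cDNA linearly, and then sequenced as stranded paired-end libraries. The number in a title pairs the soma and dendrites of 1 cell. Neurons were collected from more than 1 culture on more than 1 day, with no label that assigns a neuron to either, so culture and day could not enter a test.

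Voltage-gated channels open in response to a change in membrane potential and carry the currents of the action potential and of synaptic integration. Sodium channel alpha subunits start the spike, potassium channel alpha subunits end it and set its rate, and calcium channel alpha-1 subunits couple it to calcium entry, while auxiliary subunits steer the trafficking and gating of each pore. HCN channels open on hyperpolarization and carry a pacemaker current that is known from the distal dendrites of hippocampal pyramidal cells. Channel proteins are known to be sorted within the cell, some to the axon initial segment and some to dendrites. The comparisons asked which of the transcripts were found in each compartment, and whether any differed between the compartments of 1 neuron.

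Soma libraries held between 878125 and 24721811 gene counts and dendrite libraries between 229149 and 24439768, with the fewest counts of either compartment in neuron 25. Levels are given as CPM, counts per 1000000 gene counts of the library, and a gene is called detected at 10 or more counts, which is between 0.405 and 11.4 CPM in soma libraries and between 0.409 and 43.6 CPM in dendrite libraries. Neurod6, which encodes a transcription factor typical of pyramidal cells, was detected in all 32 libraries. Of the vesicular glutamate transporter genes, Slc17a6 was detected in 19 and Slc17a7 in 7. Of the genes of GABA synthesis and vesicular transport, Gad1 was detected in 18, Slc32a1 in 12 and Gad2 in 4. The summed level of 12 astrocyte markers lay between 0.648 and 619.6 CPM in soma libraries, with a median of 211 and with Slc1a2 and Kcnj10 at 0 in all of them, and between 40.3 and 2512 CPM in dendrite libraries, with a median of 373. The 13 inhibitory neuron markers summed to between 0.0440 and 14034 CPM in soma and between 10.9 and 5044 CPM in dendrites. The part of RNA from other cells in the channel values was not tested. The dendrites of neuron 20 stood apart, with a correlation of 0.499 across genes with the dendrites of neuron 13, after centring within the compartment, and at most -0.0631 with any other dendrite library. On the same scale the best match of soma 7 was dendrites 9, at 0.259, and that of soma 9 was dendrites 7, at 0.165. Several, but not all, results that rest on neurons 7, 8 and 9 are therefore also given without them or apart from them. Their libraries were also rich in detected genes of any kind, with 6015 to 6267 in soma and 5619 to 6414 in dendrites. Neuron 13 was about as rich, with 6291 in soma and 5983 in dendrites. The medians over all 16 neurons were 4521.5 in soma and 4280 in dendrites.

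Channel genes were a small part of the RNA. Together the 31 genes held a median of 0.168% of the gene counts in soma libraries and 0.139% in dendrite libraries. The lowest share was 0.00170% in the dendrites of neuron 20 (95% exact binomial interval 0.00133% to 0.00213%, which covers counting error only) and the highest 0.382% in the soma of neuron 22. A soma library had 11.8 ± 4.4 channel genes detected and a dendrite library 10.9 ± 4.7 (SD, n = 16). With every library thinned to 1071293 gene counts and detection set at 5 counts, the values were 10.3 ± 4.3 and 9.80 ± 4.48 (SD, n = 15 neurons, neuron 25 being too shallow).

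**Figure D1:**
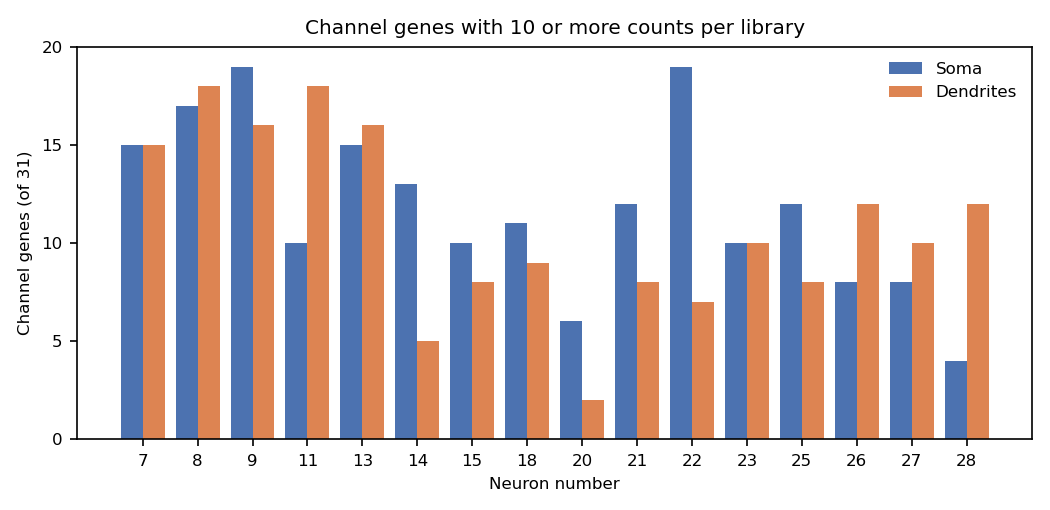
Number of the 31 channel genes with 10 or more counts (vertical axis) in the soma and the dendrites of each of 16 neurons (horizontal axis, neuron number). The bars run from 4 to 19 genes in soma libraries and from 2 to 18 in dendrite libraries, and neither compartment is higher throughout.

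Of the 31 genes, 26 were detected in at least 1 library. In 24 or more of the 32 libraries 6 were detected, namely Scn3b, Scn2a, Cacna2d1, Cacna1a, Cacnb3 and Cacnb1. Another 5 genes were detected in 16 to 23 libraries, 7 in 8 to 15 and 8 in 1 to 7. In no library did Kcna2, Kcnh7, Kcnab2, Kcnip4 or Cacna2d2 reach 10 counts. Whether the annotation used for counting misses the 3' ends of these genes could not be checked, so they are not called absent from the neurons. Over all 17216 genes, 14.1% were detected in 24 or more libraries and 36.8% in none, against 19.4% and 16.1% of the channel genes. The list was made up of genes known from neurons, so these shares describe it and test nothing.

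**Figure D2:**
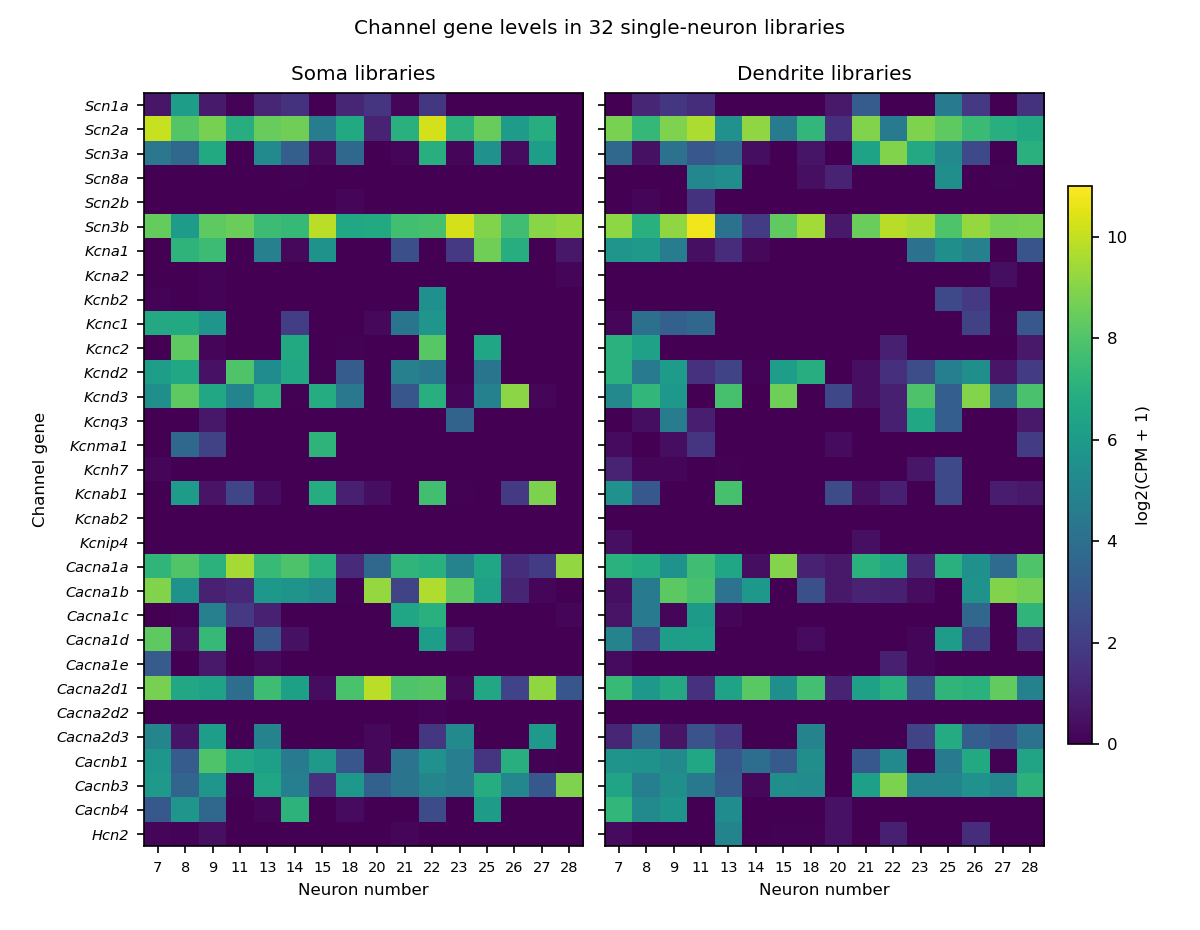
Level of each of the 31 channel genes, as log2(CPM + 1) by colour, in the 16 soma libraries (left) and the 16 dendrite libraries (right), with columns in order of neuron number. Scn2a, Scn3b, Cacna1a, Cacna2d1 and Cacnb3 form rows that are filled in most libraries, while Kcnab2 is dark in all 32 and the dendrites of neuron 20 are dark for nearly all genes.

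Among sodium channel alpha subunits, Scn2a, which encodes the main channel of young axons, was the one found throughout. Its level in soma ran from 0 in neuron 28 over a median of 130 CPM to 1268 CPM in neuron 22, and in dendrites from 1.86 CPM in neuron 20 over 170 to 805 CPM in neuron 11. The ranges overlapped almost completely, and 14 of 16 neurons had it detected in both compartments. In neuron 20 it stayed under 10 counts in both, with 7 in soma and 8 in dendrites. Neuron 28 had 0 counts in soma and 145 in dendrites.

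Scn3a, an alpha subunit known for its high expression before birth, lies beside Scn2a, with 0 protein-coding genes between them in the RefSeq annotation of the rat assembly GRCr8, and Scn1a follows after 4. Scn3a was detected in 9 soma and 8 dendrite libraries. It ran from 0 over a median of 10.5 to 119.6 CPM in soma and from 0 over 8.39 to 486 CPM in dendrites, and neuron 22 was highest in each. The ranges overlapped, and 4 neurons had it in both compartments, 5 in soma only and 4 in dendrites only. Scn1a, which encodes an alpha subunit known from fast-spiking inhibitory neurons, was detected in 7 soma and 4 dendrite libraries. Its highest soma, that of neuron 8 with 69.2 CPM, was far above the next, that of neuron 22 with 2.47 CPM. The soma of neuron 8 also had 11161 CPM of Gad1, while that of neuron 22 had 0 counts of Gad1. The dendrites with most Gad1, those of neuron 7 with 1833 CPM, had 0 counts of Scn1a. Gad1 was detected in 7 of 11 libraries with Scn1a, beside 18 of all 32. Of the 6 libraries of neurons 7, 8 and 9, 4 had Scn1a, against 7 of the other 26.

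Scn8a, which encodes the mature channel of the axon initial segment and nodes, was all but missing from soma. In 15 soma libraries it had 0 counts and in that of neuron 14 it had 1, while the dendrites of neuron 13 had 796 counts, those of neuron 11 had 733 and those of neuron 25 had 10. The other 13 dendrite libraries had 6 or fewer. Too few libraries held it for the test of abundance described below. When the filter on low counts was dropped, its unadjusted p was 0.0190, and its adjusted p was 0.975 with edgeR's quasi-likelihood test. In that fit 424 of 13879 genes, and 2 of the 30 channel genes, had an unadjusted p under 0.05.

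The 2 sodium channel beta subunits lay at opposite ends. Scn3b, a single-pass membrane protein that binds the alpha subunit, was the most widely detected gene of all 31, in 16 soma and 15 dendrite libraries. Its level ran from 66.4 over 263 to 1266 CPM in soma and from 0.697 over 428 to 1712 CPM in dendrites. The low end in dendrites was set by neurons 20, 14 and 13, with 0.697, 2.84 and 16.2 CPM against 102, 164 and 183 CPM in their somata. Scn2b, a beta subunit linked to the alpha subunit by a disulfide bond, was detected once, with 43 counts in the dendrites of neuron 11, and had at most 2 counts elsewhere.

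Among the potassium channel alpha subunit genes of the list, none was detected in more than 21 of the 32 libraries. Kcnd2 and Kcnd3 encode Shal-type subunits that carry the transient A-type current of pyramidal cell dendrites. Kcnd2 was detected in 9 soma and 10 dendrite libraries, with 0, 13.3 and 251 CPM as lowest, median and highest value in soma and 0, 4.40 and 128 CPM in dendrites. Kcnd3 was detected in 11 and 10 libraries, with 0, 28.6 and 539 CPM in soma and 0, 25.5 and 496 CPM in dendrites. The ranges of both genes overlapped between compartments. Kcnd3 was highest in neuron 26 in both, while neurons 23 and 28 had 0.110 and 0 CPM in soma but 239 and 226 CPM in dendrites. Neurons 11 and 18 had 29.8 and 19.9 CPM in soma and 0 CPM in dendrites. A Shal-type gene was detected in 12 soma and 12 dendrite libraries. Kcnip4, which encodes a calcium-sensing protein that binds these channels, had 0 counts in all soma libraries and at most 3 counts in dendrites. Genes of other such proteins are not on the list.

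Kcna1, a Shaker-type subunit known from axons, was detected in 8 soma and 7 dendrite libraries. It ran from 0 over 1.59 to 391 CPM in soma and from 0 over 0.997 to 60.9 CPM in dendrites, and 6 neurons had it in both compartments. Its partner Kcna2 never passed 8 counts. Of the cytoplasmic Kv beta subunits, which bind Shaker-type channels, Kcnab1 was detected in 7 soma and 5 dendrite libraries, and its highest values were 457 CPM in the soma of neuron 27 and 221 CPM in the dendrites of neuron 13. Only 2 neurons had it in both. Kcnab2 had 0 counts in all 32 libraries, and 3 counts, the limit that a count of 0 allows, would be between 0.121 and 3.42 CPM in soma libraries and between 0.123 and 13.1 CPM in dendrite libraries. This limit covers counting error only.

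Kcnc1 and Kcnc2, Shaw-type subunits known for the fast repolarization of fast-spiking inhibitory neurons, were found in a minority of cells. Kcnc1 was detected in 6 soma and 4 dendrite libraries, and the somata of neurons 8 and 7 were highest, with 102 and 99.9 CPM. Kcnc2 was detected in 4 soma and 2 dendrite libraries, with 306 CPM in the soma of neuron 8, 278 in that of neuron 22, 102 in that of neuron 14 and 87.7 in that of neuron 25, and with 129 and 76.9 CPM in the dendrites of neurons 7 and 8. The other libraries had 2 counts or fewer of Kcnc2. Gad1 was detected in 6 of 10 libraries with Kcnc1 and 4 of 6 with Kcnc2, beside 18 of all 32, and it had 0 counts in the somata of neurons 14 and 22. The 6 libraries of neurons 7, 8 and 9 were rich in detected genes of any kind. Of them, 5 had Kcnc1 and 3 had Kcnc2, against 5 and 3 of the other 26 libraries. Neuron 13, about as rich in detected genes, had 0 counts of both genes in soma and in dendrites.

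The remaining potassium channel genes were found in few libraries. Kcnq3, which encodes a subunit of the muscarine-sensitive M-current, had 10 or more counts in the soma and the dendrites of neurons 9 and 23 and in the dendrites of neuron 11. Its CPM was higher in dendrites in 7 neurons and higher in soma in none, and in the other 9 neurons both libraries were at 0. Among the 7, the dendrites of neurons 8, 22, 25 and 28 had only 3, 1, 2 and 1 counts, under the detection limit. Without the filter on low counts its unadjusted p was 0.0335 and its adjusted p 0.975 in edgeR. Kcnq3 and Scn8a were the 2 of 30 channel genes under 0.05 in that fit, as were 424 of 13879 genes. Kcnma1, the pore of the large-conductance calcium-activated channel, had 3481 counts in the soma of neuron 15, 161 and 56 in those of neurons 8 and 9, and 45 in the dendrites of neuron 11. Kcnb2, a Shab-type delayed rectifier subunit, was detected only in the soma of neuron 22, with 978 counts. Kcnh7, an Erg-type subunit, had at most 2 counts in soma and 9 in dendrites.

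A calcium channel pore gene was detected in 15 soma and 14 dendrite libraries. Cacna1a, which encodes the pore of P/Q-type channels, was detected in 15 soma and 13 dendrite libraries and was above 0 in all 32. It ran from 1.55 over 131 to 739 CPM in soma and from 0.324 over 91.6 to 494 CPM in dendrites, and was higher in soma in 12 of 16 neurons. The widest gap within a cell was in neuron 14, whose soma had 243 CPM and whose dendrites had 0.324 CPM.

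Cacna1b, the pore of N-type channels, was often detected in only 1 compartment of a cell. It was detected in 12 soma and 9 dendrite libraries and in every neuron in at least 1 of the 2, but in both compartments of only 5. Its lowest, median and highest values were 0, 43.0 and 817 CPM in soma and 0, 11.5 and 488 CPM in dendrites. Neurons 7, 20, 22 and 23 had between 307 and 817 CPM in soma and under 1 CPM in dendrites, while neurons 27 and 28 had 0.120 and 0 CPM in soma and 488 and 410 CPM in dendrites. The median absolute difference between the compartments of 1 neuron was 7.67 on the log2 CPM scale for Cacna1b, against 1.58 for Cacna1a. The next highest value among the 12 channel genes tested for abundance below was 3.97, for Cacna2d3. Whether genes differed in this respect was not tested.

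The L-type genes were detected in fewer libraries. Cacna1c was detected in 5 soma and 4 dendrite libraries, with at most 127 and 146 CPM, and Cacna1d in 5 and 5, with at most 312 and 73.9 CPM. Cacna1c was detected in both compartments of 1 neuron and Cacna1d of 2. Of the 6 libraries of neurons 7, 8 and 9, which were rich in detected genes, 5 had Cacna1d, against 5 of the other 26. Neuron 13, about as rich, had 138 counts of Cacna1d in soma and 0 in dendrites. Cacna1e, the pore of R-type channels, was detected only in the somata of neurons 7 and 9, with 119 and 11 counts.

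Cacna2d1, the alpha-2-delta subunit that binds gabapentin and aids the surface expression of the pore, was above 0 in all 32 libraries and detected in 14 soma and 15 dendrite libraries. It ran from 0.166 over 95.2 to 936 CPM in soma and from 1.16 over 89.2 to 324 CPM in dendrites. The highest soma and the lowest dendrites were both those of neuron 20. Cacna2d3, another alpha-2-delta subunit, was detected in 6 soma and 10 dendrite libraries, from 0 over 0.0811 to 71.9 CPM in soma and from 0 over 3.13 to 109 CPM in dendrites, and in both compartments of 4 neurons. Cacna2d2 had 2 counts in the soma of neuron 22 and 0 in every other library.

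The cytoplasmic beta subunits, which bind the pore and release it from the endoplasmic reticulum, had at least 1 gene detected in 16 soma and 14 dendrite libraries. Cacnb3 was detected in 15 soma and 13 dendrite libraries, with 0.0748, 28.7 and 463 CPM in soma and 0, 36.3 and 458 CPM in dendrites as lowest, median and highest value. Cacnb1 was detected in 12 and 12 libraries, with 0, 23.8 and 251 CPM in soma and 0, 29.1 and 102 CPM in dendrites. The ranges of both genes overlapped between compartments. Cacnb4 was detected in 6 soma and 4 dendrite libraries. It was detected in all 6 libraries of neurons 7, 8 and 9, which were rich in detected genes, against 4 of the other 26. Neuron 13, about as rich, had 3 counts of Cacnb4 in soma and 774 in dendrites. The highest values of Cacnb4 were 136 CPM in the soma of neuron 14, whose dendrites had 0 counts, and 154 CPM in the dendrites of neuron 7.

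Hcn2, the only HCN gene of the list, was detected in 1 library, the dendrites of neuron 13, with 577 counts or 30.1 CPM. The other libraries had at most 6 counts.

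Taken by complexes, most libraries held transcripts for sodium, potassium and calcium channels. A sodium channel alpha and a beta subunit gene were detected together in 15 soma and 15 dendrite libraries, the exceptions being the soma of neuron 28 and the dendrites of neuron 20. A calcium channel alpha-1, an alpha-2-delta and a beta subunit gene were detected together in 14 soma and 13 dendrite libraries. A potassium channel alpha subunit gene of the list, with Kcnma1 not counted here or below, was detected in 13 soma and 13 dendrite libraries. At least 1 sodium, 1 potassium and 1 calcium pore gene were found together in 12 soma and 11 dendrite libraries. The genes that filled a role differed: the median library had 2 of the 4 sodium channel alpha genes and 2 of the 5 calcium channel alpha-1 genes in either compartment, and of the 9 potassium channel alpha genes 2.5 in soma and 2 in dendrites.

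The soma and dendrites of a cell often held different channel genes. Over 31 genes and 16 neurons, 122 of 496 combinations had the gene detected in both compartments, 67 in soma only, 52 in dendrites only and 255 in neither. Of the combinations detected at all, 50.6% were thus shared, against 52.2% over all 17216 genes, so the channel genes were close to the background in this respect. The share of the channel genes was 52.4% without neuron 20 and 43.7% without neurons 7, 8 and 9. The median neuron had 71.3% of its soma channel genes also in dendrites and 75% of its dendrite channel genes also in soma. For these subsets and for single neurons the share over all genes was not computed, so the values have no background beside them. The dendrites of neurons 14 and 22 held 5 and 7 channel genes, all of them also in the 13 and 19 of the soma, and the soma of neuron 28 held 4, all also in the 12 of its dendrites. Neuron 20 shared none of the 6 in soma and 2 in dendrites.

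**Figure D3:**
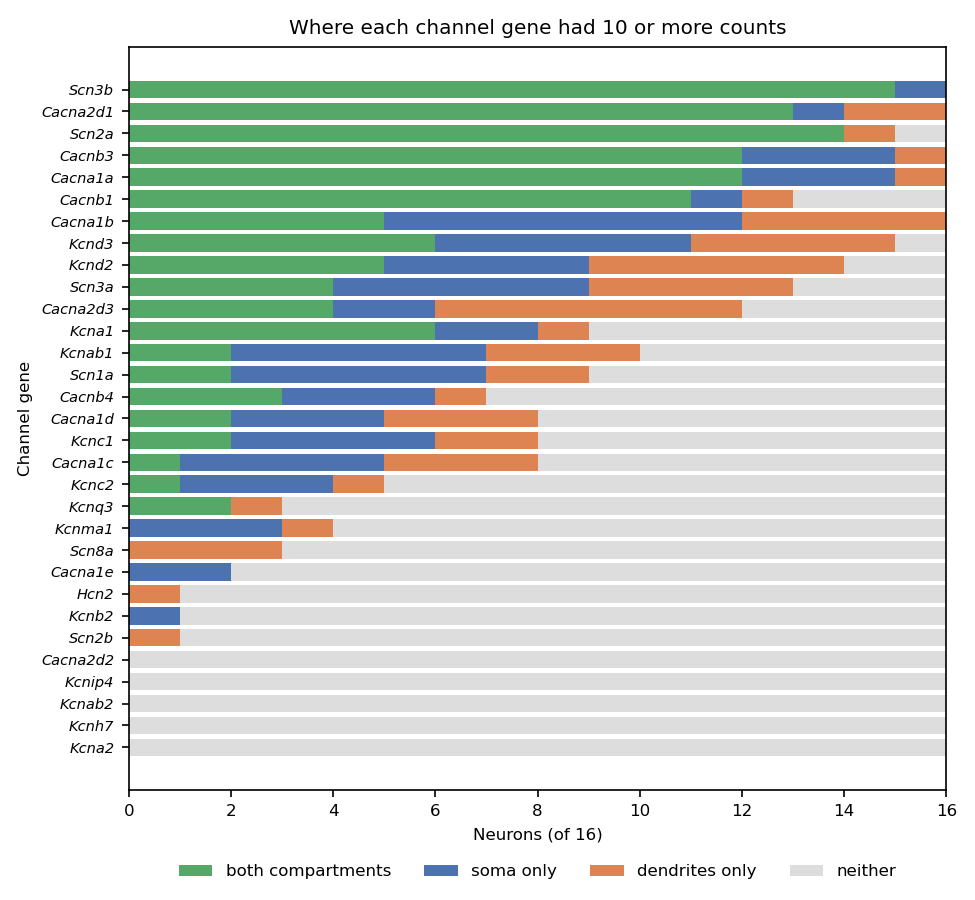
Number of the 16 neurons (horizontal axis) in which each channel gene had 10 or more counts in both compartments, in soma only, in dendrites only or in neither. Scn3b, Scn2a and Cacna2d1 were shared by 15, 14 and 13 neurons, while Cacna1b was found in 1 compartment only in 11 neurons and Scn8a in dendrites only in 3.

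Abundance in dendrites was then tested against soma of the same neuron with edgeR's quasi-likelihood test, fitted on all genes that passed a filter on low counts. Of 4916 genes tested, 0 passed an adjusted p of 0.05, so that the background was 0%, and 129 had an unadjusted p under 0.05, or 2.62%. Of the channel genes, 12 passed the filter, and 0 of these passed the adjusted p or had an unadjusted p under 0.05. The other 19 were too sparse to be tested. Of the 12, 5 had a log2 fold change above 0 and 7 below, with a median of -0.26, against 0.127 over all tested genes. Cacna1a, with the smallest p, was at -0.82 ± 0.90 (SE, n = 16 neurons) and had an adjusted p of 0.999 in edgeR. Kcna1 followed among the negative values, with -1.04 ± 1.74. Scn2a stood at 0.50 ± 0.82 and Kcnd2 at 1.33 ± 2.37, the positive values with the smallest p.

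**Figure D4:**
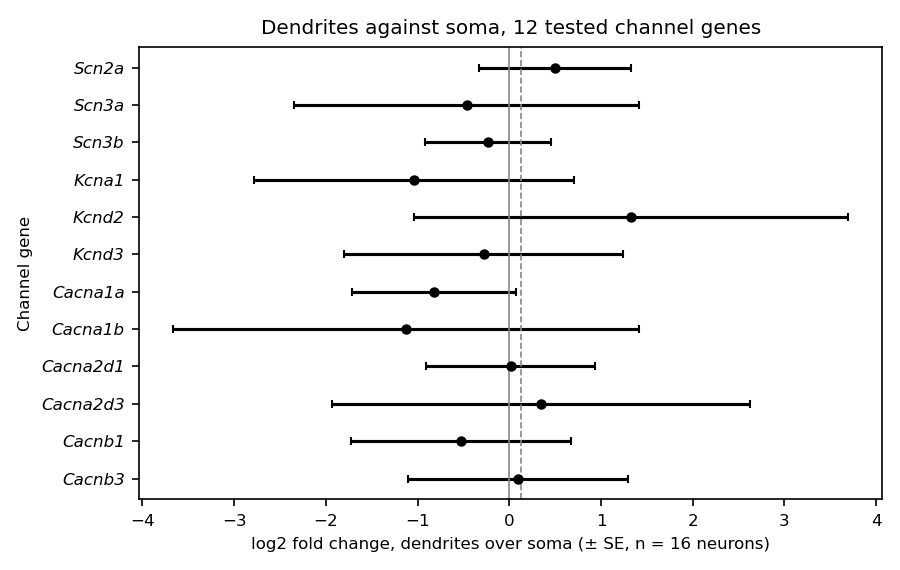
Log2 fold change of dendrites over soma (horizontal axis, points, with bars of ± 1 SE from edgeR, n = 16 neurons) for the 12 channel genes that passed the filter on low counts. The solid line is at 0 and the dashed line at 0.127, the median of 4916 tested genes; the points lie between -1.13 for Cacna1b and 1.33 for Kcnd2, and every point is within 1 SE of 0.

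The remaining values were small beside their errors. Scn3b was at -0.23 ± 0.68 (SE, n = 16 neurons), Cacna2d1 at 0.015 ± 0.925, Cacnb3 at 0.098 ± 1.20 and Cacnb1 at -0.53 ± 1.20. Kcnd3 was at -0.28 ± 1.52, Scn3a at -0.46 ± 1.88, Cacna2d3 at 0.35 ± 2.28 and Cacna1b at -1.13 ± 2.54. Each had an adjusted p of 0.999 in edgeR. The SE of the 12 genes was between 0.684 and 2.54, with a median of 1.36, so a change of several fold in most of them was not detectable. The direction of Scn2a, Scn3a, Scn3b, Kcnd2, Kcnd3, Cacna2d1, Cacna2d3 and Cacnb3 turned under at least 1 alternative. DESeq2's Wald test, which called 406 of 4916 genes or 8.26%, called 0 of the 12, with Kcnd2 lowest at an adjusted p of 0.310.

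**Figure D5:**
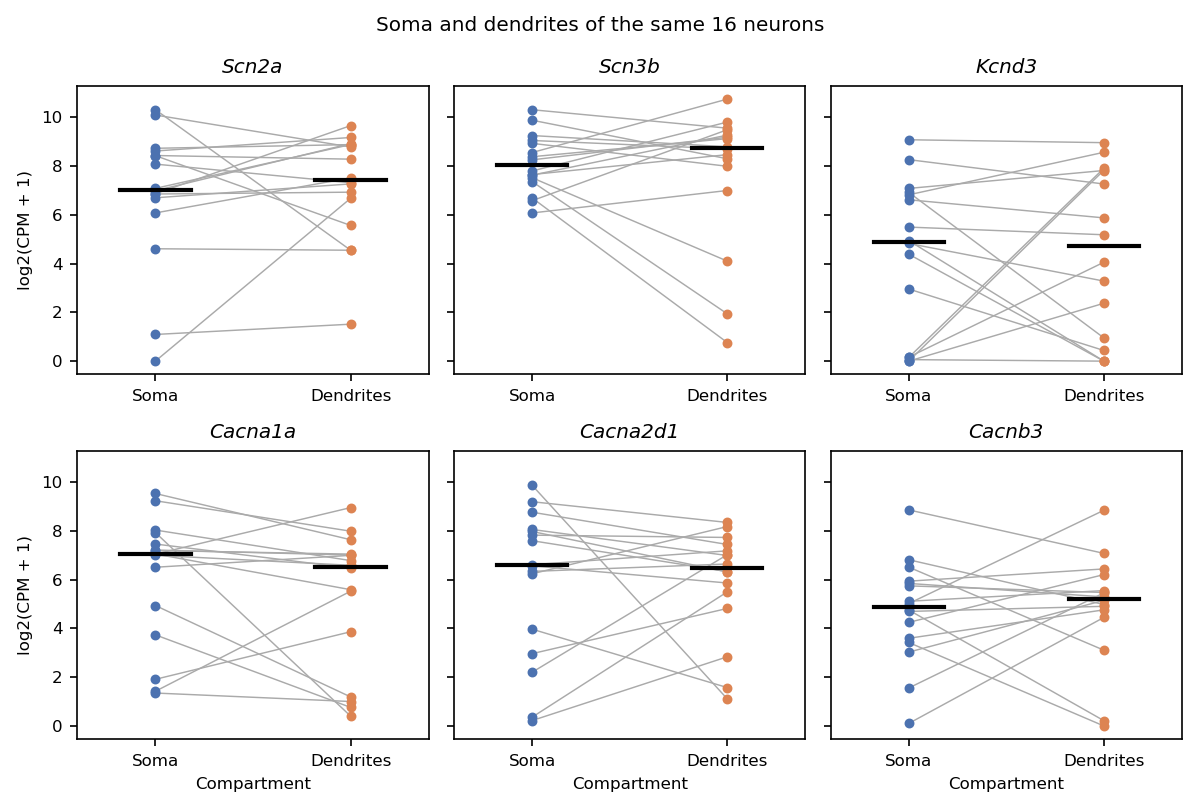
Level as log2(CPM + 1) (vertical axis) in soma and dendrites of the same 16 neurons, joined by lines, for 6 channel genes; black bars mark the median of each compartment. Lines cross in both directions for all 6 genes, and the 2 groups of points overlap in each.

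Detection was tested at the common depth of 1071293 counts, with an exact sign test over the neurons in which a gene had 5 or more counts in 1 compartment only. Of 10048 genes, 0 passed an adjusted p of 0.05, a background of 0%, and 61, or 0.607%, had an unadjusted p under 0.05. Of the channel genes, 25 could be tested, and 0 were under either limit. Kcnma1 had the smallest unadjusted p, 0.25 in the exact test, with detection in 3 somata and 0 dendrites of 15 neurons. Scn2a was detected in 13 somata and 14 dendrites, and Scn3b in 15 and 13. The exact test cannot give less than 6.1e-05 even if all 15 neurons differ between compartments. At that value 1 gene alone could not pass the adjusted p over 10048 genes. The exact test uses only the neurons with detection in 1 compartment, so its floor is higher for most genes. Kcnma1 had 3 such neurons, Scn3b 2 and Scn2a 1, and the values of 0.25 for Kcnma1 and 0.5 for Scn3b are the lowest they could take. For channel genes with so few such neurons a p under 0.05 was not possible, so its absence says nothing about them.

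The series title names drift below the level of the cell, and the spread of each gene between neurons was compared as the mean absolute deviation of log2 CPM from the compartment's median at the common depth. Of 4916 genes, 0 passed an adjusted p of 0.05 in an exact sign-flip permutation test, a background of 0%, and 170, or 3.46%, had an unadjusted p under 0.05. Of the 12 channel genes, 0 were under either limit. With 15 neurons the permutation test cannot give less than 6.1e-05, which is too high for 1 gene alone to pass the adjusted p over 4916 genes. The absence of calls therefore says little. Cacna2d1 deviated by 2.35 in soma and 1.47 in dendrites (unadjusted p = 0.0730, adjusted p = 0.9998, exact permutation, 15 neurons). At full depth, where the libraries also differ in depth, Cacna2d1 deviated by 2.71 and 1.47 (unadjusted p = 0.0455, adjusted p = 0.9986, exact permutation, 16 neurons). Scn3b deviated by 0.912 in soma and 1.91 in dendrites (unadjusted p = 0.211), and by 0.920 and 1.48 without neuron 20. In soma Scn3b had an SD of 1.16 log2 CPM over the neurons, less than any of the other 11 tested channel genes.

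Other channel genes, from a list of 61 pore and auxiliary subunit genes that were not members, were looked at in the same fit. Of these, 60 were analysed, 44 were detected in at least 1 library and 11 passed the filter on low counts. The 11 had 7 log2 fold changes above 0 and 4 below, with a median of 0.99, and 0 passed an adjusted p of 0.05 in edgeR. The Shaker-type gene Kcna6 was detected in 10 soma and 14 dendrite libraries, and it ran from 0 over 46.3 to 1051 CPM in soma and from 0 over 137 to 1454 CPM in dendrites. The ranges overlapped, and the dendrite value was the higher one in 11 of 16 neurons. Its log2 fold change was 3.07 ± 1.92 (SE, n = 16), with an adjusted p of 0.999 in edgeR and 0.0146 in DESeq2. Cacna1h, which encodes a T-type calcium channel pore, was detected in 7 soma and 8 dendrite libraries and was at 2.61 ± 1.86, with an adjusted p of 0.999 in edgeR and 0.0391 in DESeq2.

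Anchors and partners of sodium channels at the axon initial segment were taken from a list of 12, of which 10 were analysed and 8 passed the filter. They had 6 values above 0 and 2 below, a median of 0.54 and 0 calls in edgeR. Ank3, which encodes the scaffold ankyrin-G that gathers sodium channels there, ran from 0.120 over 22.5 to 78.3 CPM in soma and from 0.859 over 53.2 to 187 CPM in dendrites. The dendrite value was the higher one in 14 of 16 neurons, at 2.59 ± 1.25 (SE, n = 16), with an adjusted p of 0.999 in edgeR and 0.00625 in DESeq2. Sptbn4, the spectrin that holds ankyrin-G, was at 0.92 ± 1.79. The sodium channel binding proteins Fgf12 and Fgf13 were at -1.65 ± 1.62 and -0.39 ± 0.77, with an adjusted p of 0.999 in edgeR for these 3.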

How the data were processed

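For each library the authors deposited raw counts per gene, whole numbers over 17216 gene rows and 92 spike-in rows, and the spike-ins stayed out of all steps here. The submitters' processing notes list build rn6. How reads were aligned and whether counting used strand or shared reads is not given in the sources used here, so overlapping and antisense genes are uncertain. Amplification from the poly-A tail favours the 3' end and no gene lengths were used, so levels are compared between libraries and not between genes.

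In R 4.3.3, edgeR 4.0.16 was run on genes passing filterByExpr by compartment (minimum count 10), with TMM normalization, neuron as a block, glmQLFit (robust), glmQLFTest and Benjamini-Hochberg adjustment at 0.05. Each SE was taken as the absolute log2 fold change divided by the root of F. The pairing comes from the series text. As a check, centred profiles of the soma and dendrites of 1 neuron had a mean Spearman correlation of 0.0678 across genes, against -0.00054 between neurons. The correlation was over 0.1 in 4 of 16 neurons, and 7 somata and 5 dendrite libraries matched their own partner best. Detection and spread were tested with exact tests over neurons, on counts thinned at random to 1071293 per library. Alternatives included DESeq2 1.42.0 and limma-voom (limma 3.58.1). The tests were checked on simulated data with large changes set in many genes at once, which does not show what they could find here.

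All 31 members are accounted for. Those detected in 16 or more libraries, and the 2 with the smallest p per direction, are given in full. Of each other list up to 4 genes with the smallest p are named. Ank2 and Cntnap2 were not analysed here, and some genes of these lists are not reported here. The members and lists were chosen with earlier results of these data known. P-values measure the spread between these 16 neurons.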

Additional observations from a re-analysis of the deposited data

How the results depend on the processing

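Genes called for dendrites against soma stayed at 0 with no replicate block, with DESeq2 size factors, limma-voom, a sign-flip test per gene, without neurons 7, 8 and 9, and in all 16 fits that left out 1 neuron. The count was 1 with no filter on low counts (Adam1a, of 13879 genes) and 406 with DESeq2's Wald test, and none of these were channel genes of the list. Of the genes named from the other lists, DESeq2 called Kcna6 (log2 fold change 3.16), Cacna1h (3.31) and Ank3 (2.60). Calls of detection and of spread stayed at 0 under each alternative, those without neuron 20, chosen after seeing the data, included. In the exact tests over pairs of neurons, the sign-flip test per gene among them, 1 gene alone could not reach the adjusted p. Counts of 0 from those tests therefore say little. Other detection limits moved the mean number of channel genes per library by less than 1 SD.

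With no replicate block, the log2 fold change turned to -0.19 for Scn2a, 0.88 for Scn3a, 0.21 for Scn3b, -0.52 for Kcnd2, 0.30 for Kcnd3, -1.14 for Cacna2d1, -0.72 for Cacna2d3, -0.084 for Cacnb3 and -1.36 for Sptbn4. With limma-voom it turned to 0.51 for Scn3a, 0.20 for Scn3b, 0.42 for Kcnd3 and -0.36 for Cacna2d1, and with no filter to -0.017 for Cacna2d1. Without neurons 7, 8 and 9 it was 0.94 for Scn3a and -0.089 for Cacnb3, and Cacna2d3 moved to 1.56. Leaving out 1 neuron at a time gave values between -0.98 and 0.046 for Scn3a, -0.49 and 0.084 for Scn3b, -0.73 and 0.15 for Kcnd3, -0.28 and 0.39 for Cacna2d1, -0.65 and 1.35 for Cacna2d3, and -0.21 and 0.46 for Cacnb3. The other 6 tested channel genes kept their sign, between 0.25 and 0.74 for Scn2a, -1.51 and -0.56 for Kcna1, 0.55 and 2.11 for Kcnd2, -1.12 and -0.57 for Cacna1a, -1.90 and -0.28 for Cacna1b, and -0.82 and -0.23 for Cacnb1. The cause was not tested. None of these values passed the threshold. The shallow libraries and the many values at 0 limit what could be seen.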

Other observations

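The dendrite library of neuron 20 held few channel counts. Of the 31 genes, 12 had 1 or more counts there. These included 10 of the 16 genes with 10 or more counts in the dendrites of neuron 13. They also included 5 of the 6 genes with 10 or more counts in the soma of neuron 20 itself. Kcnab1 had 20 counts in the dendrites of neuron 20 and 4236 in those of neuron 13, with 2 in the soma of neuron 20. Kcnd3 had 18 and 4300 counts, with 0 in that soma, Scn8a 5 and 796, with 0 in that soma, and Hcn2 2 and 577, with 0 in that soma. Cacna2d1 and Cacna1b, with 5772 and 3787 counts in the soma of neuron 20, had 5 and 3 counts in its dendrites. The cause was not tested.

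Neuron 22 had the widest gap in channel genes, 19 in soma and 7 in dendrites. Its soma held 83461 counts of channel genes, with 27732 of Scn2a and 17861 of Cacna1b, and was the highest soma for Scn2a, Scn3a, Cacna1b, Cacna1c and Kcnb2. Its dendrites held 24 counts of Scn2a and 1 of Cacna1b in a library of 1071293, but 521 of Scn3a, the highest level of that gene in any library. Gad1 and Gad2 were at 0 counts in both. Slc17a7 had 1662 counts in the soma, the highest of the 32 libraries, and 0 in the dendrites, while Slc32a1, the vesicular GABA transporter gene, had 1172 counts in the soma and 49 in the dendrites.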
